A study of Mus musculus with 26 samples.

Results

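Gene expression was compared between WT and ACKR2-/- monocytes sorted from bone marrow. There were 4 samples of each genotype, 8 of the 26 RNA sequencing samples of the series. All genes that passed a filter on low counts were kept, 13246 of the 54375 genes in the table. WT mice were purchased C57BL/6J and ACKR2-/- mice came from a colony bred as homozygotes, so the deletion and the colony cannot be told apart. All mice were naïve females, each sample held cells pooled from several mice, and the methods describe the mice of the study in general as young adults. Cells were sorted as CD45+ CD11b+ Ly6C+ and as negative for Ly6G, SiglecF and F4/80, among other antigens. Between 15450670 and 19218213 reads per sample were counted on genes.

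ACKR2 is an atypical chemokine receptor that binds inflammatory CC chemokines, does not signal through G proteins, and takes its ligands into the cell for degradation. Ly6C+ monocytes arise in the bone marrow from progenitors that also give rise to neutrophils. They leave the marrow through chemokine receptors, mainly CCR2, and become macrophages or nonclassical monocytes elsewhere. Some granule genes, such as Mpo and Elane, are switched on in these progenitors, so that sorted marrow monocytes can hold some of their RNA. Neither is in the list of neutrophil genes used below. A gene can be lower in a bulk sample because fewer cells express it or because each cell holds less of it. These cannot be told apart here.

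The sorted cells expressed the genes that mark bone marrow monocytes. Normalized counts are given as CPM, counts scaled to the library's total over the tested genes. Ly6c2, which encodes a part of the Ly6C antigen used for the sort, was 5163, 6461, 5869.7 and 5930.3 CPM in the WT samples and 3271, 5304, 6265 and 5030.4 CPM in the ACKR2-/- samples. Ccr2 was 839, 503, 808 and 677 CPM in WT and 414, 450.2, 918 and 769 CPM in ACKR2-/- monocytes. Csf1r, the receptor for the growth factor CSF1, lay between 196 and 301 CPM in WT and between 126 and 294 CPM in ACKR2-/- monocytes, and F13a1, coagulation factor XIII A, lay between 823 and 1214 CPM and between 605 and 1107 CPM. The genotypes overlapped for all 4 markers, with adjusted p between 0.559 and 0.805 in edgeR. ACKR2-/- replicate 1 stood apart from the other samples. Its 4 monocyte markers summed to 4503 CPM, against 6486 to 8584 CPM in the other 7 samples, its erythroid list to 1330 CPM, against 90.6 to 579 CPM, and its mitochondrially encoded genes to 8729 CPM, against 2432 to 6153 CPM.

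Markers of other cell types were present in every sample, and some moved with the genotype. T cell genes were summed over 41 members of the list, tested or not, and this sum was 122, 132, 119.6 and 135 CPM in WT and 349.9, 262, 363 and 411 CPM in ACKR2-/- monocytes, with no overlap (exact two-sided permutation p = 0.0286, the smallest that 4 samples against 4 allow). The sum of 22 neutrophil genes was 48720.5, 97632, 42407 and 70952 CPM in WT and 57068, 60831, 14693 and 22423 CPM in ACKR2-/- monocytes (exact permutation p = 0.2). It was highest in WT replicate 2 and lowest in ACKR2-/- replicates 3 and 4, and the genotypes overlapped. The sum of 16 basophil and mast cell genes had the same highest and lowest samples, with 167 to 262 CPM in WT and 48.1 to 187 CPM in ACKR2-/- monocytes (exact permutation p = 0.0857). The dendritic cell list summed to 259.7 to 336 CPM in WT and 302 to 445 CPM in ACKR2-/- monocytes, and the B cell list to 61.2 to 63.7 CPM and 53.96 to 124 CPM (exact permutation p = 0.114 and 0.314). For eosinophils the sums were 129.7 to 171 CPM and 99.05 to 135 CPM (exact permutation p = 0.143), and for megakaryocytes and platelets 19.5 to 86.7 CPM and 15.8 to 35.7 CPM (exact permutation p = 0.486). The NK cell receptor gene Ncr1 had 0 reads in all 8 samples, whereas Nkg7 alone gave 619 to 1175 CPM in WT and 371 to 1508 CPM in ACKR2-/- monocytes and made up most of the NK cell sum.

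**Figure D1:**
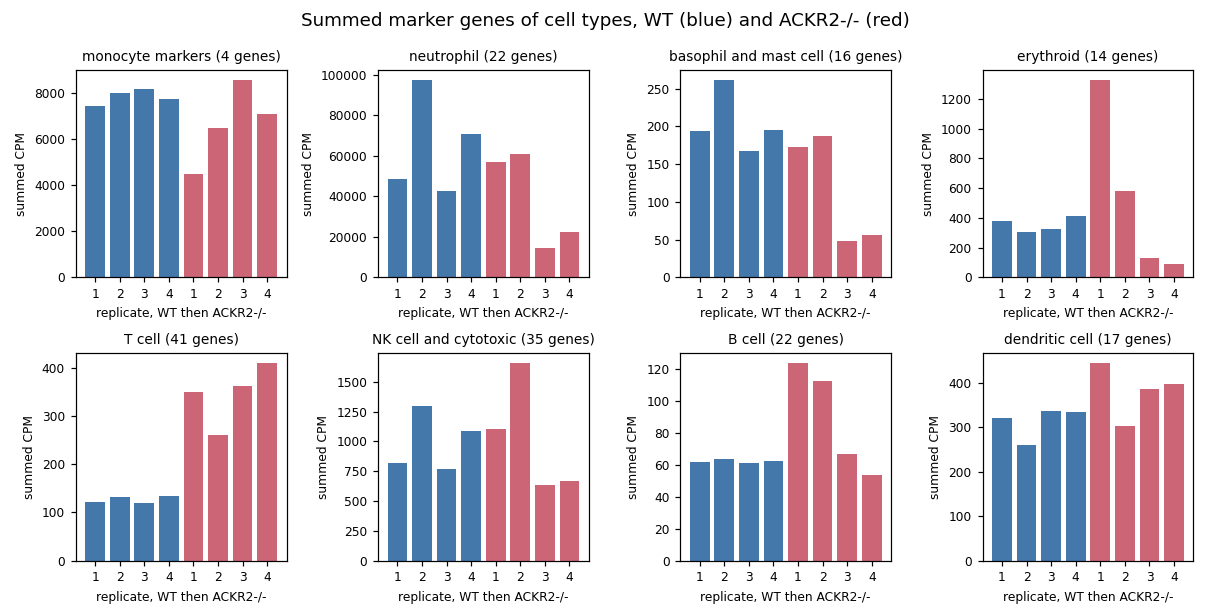
Summed CPM of marker lists of 8 cell types (y axes, linear from 0) in each sample (x axes, WT replicates 1 to 4 in blue, then ACKR2-/- replicates 1 to 4 in red). T cell sums were 120 to 135 CPM in WT and 262 to 411 CPM in ACKR2-/- samples, neutrophil sums were lowest in ACKR2-/- replicates 3 and 4, and ACKR2-/- replicate 1 had the lowest monocyte marker and the highest erythroid sum.

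In ACKR2-/- monocytes 121 genes were called higher and 47 lower by edgeR's quasi-likelihood test. A call needed an adjusted p below 0.05 and a log2 fold change beyond 0.5 in either direction. Together these are 1.27% of the tested genes, with 0.913% called higher and 0.355% called lower. The 2 sets had different levels. Of the 121 genes called higher, 76 had a WT mean under 1 CPM and 19 a mean over 10 CPM, whereas 43 of the 47 called lower had a WT mean over 10 CPM. Lists of T, NK, innate lymphoid, B or plasma cells, the GIMAP family or antigen receptor segments held 58 of the genes called higher and 0 of those called lower. Outside these lists 63 genes were called higher, some of which lymphocytes also express, such as Cxcr6 and Cd96. Of the 63, 22 had a WT mean over 5 CPM. The median size of the log2 fold change was 0.84 for these 22 and 0.84 for the 47 called lower. The genotypes did not overlap for any of the 168 genes. Over all tested genes, every ACKR2-/- sample lay above every WT sample for 4.94% and below for 5.25%. At an unadjusted p under 0.05 edgeR gave 1169 higher and 1082 lower genes of all 13246 tested. Another test, DESeq2, called 312 higher and 182 lower at the thresholds for a call.

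Few of the genes called lower stayed called whichever sample was left out. A fit that leaves out a sample has less power, and the part of this in the lost calls was not tested. With WT replicate 1, 2, 3 or 4 left out, 6, 5, 19 and 13 genes were called lower, and without ACKR2-/- replicate 4, 13. In contrast, 125 were called lower without ACKR2-/- replicate 3. Of the 47 genes 5 stayed called in all 8 fits that left out 1 sample (Crkl, Entpd7, Hist1h4d, Eml2 and CT010467.1), and 37 stayed called in 4 or fewer. For the genes called higher, 70, 77, 80 and 74 calls were made without WT replicates 1 to 4, and 288 without ACKR2-/- replicate 3. In all 8 fits 61 of the 121 stayed called, 40 of them in lymphoid lists or segments and 21 outside. The 21 also hold genes that lymphocytes express, such as Cxcr6 and Cd96. WT replicate 2, the sample with the highest neutrophil sum, was the highest WT sample for 31 of the 47 genes called lower (66.0%), and for 29.4% of all tested genes. ACKR2-/- replicate 1 was the highest ACKR2-/- sample for 36 of the 63 genes called higher outside the lymphoid lists (57.1%), and for 31.8% of all tested genes.

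**Figure D2:**
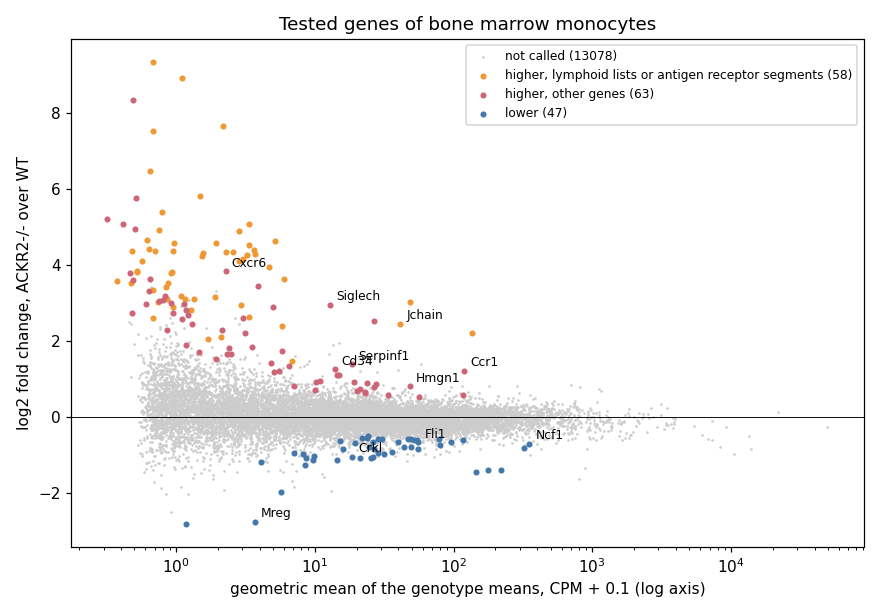
Log2 fold change of ACKR2-/- over WT (y axis) against the geometric mean of the genotype means in CPM, with 0.1 CPM added to each (x axis, log scale), for the tested genes. Genes called higher in lymphoid lists or antigen receptor segments (58, orange) lie mostly below 10 CPM. The other genes called higher (63, red), some of which lymphocytes also express, spread over all levels. Genes called lower (47, blue) lie mostly above 10 CPM.

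Of the 29 chemokine and sphingosine phosphate receptors listed, 18 were tested, 5 were called higher and 0 lower (0.913% and 0.355% of all genes). The list had a median log2 fold change of -0.15, against 0.004 over all genes, and it was -0.01 without ACKR2-/- replicate 2. Ccr1, a receptor for several CC chemokines that ACKR2 also binds, was 84.1, 70.9, 87.9 and 69.9 CPM in WT and 226, 155, 161 and 181 CPM in ACKR2-/- monocytes. The lowest ACKR2-/- sample was well above the highest WT sample. Ccr1 rose 2.31-fold (log2 fold change 1.21, standard error 0.15, adjusted p = 0.00129 from edgeR), and it stayed called without any 1 of the 8 samples. Among receptors whose levels can be compared per length, Ccr1 went from 27.6 to 63.9 CPM per kilobase, Ccr2 was at 105 and 94.3 CPM per kilobase in WT and ACKR2-/- monocytes, and the fractalkine receptor Cx3cr1 was at 22.9 and 16.3. Ccr1 thus lay near Cx3cr1 in WT samples and between Cx3cr1 and Ccr2 in ACKR2-/- samples.

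The other receptors called higher are ones that lymphocytes use, and they were low. Cxcr6, the receptor for CXCL16, was 0.261, 0.871, 0.501 and 0.559 CPM in WT and 6.13, 4.78, 10.2 and 10.5 CPM in ACKR2-/- monocytes (log2 fold change 3.83, standard error 0.38, adjusted p = 0.000313 from edgeR). Cxcr3, the receptor for CXCL9 and CXCL10, was 3.84, 4.66, 3.62 and 3.97 CPM in WT and 7.58, 6.15, 14.2 and 12.9 CPM in ACKR2-/- monocytes (log2 fold change 1.34, standard error 0.27, adjusted p = 0.0364). Both were highest in ACKR2-/- replicates 3 and 4, as was the T cell sum. Ccr7, which guides cells into lymphatics, lay between 0.111 and 0.586 CPM in WT and between 2.07 and 4.46 CPM in ACKR2-/- monocytes, and S1pr1, which guides lymphocytes out of tissues, between 0.168 and 0.373 CPM and between 0.797 and 3.88 CPM. The part of T cell RNA in these values was not tested. Cxcr6 and Ccr7 stayed called in all 8 fits that left out 1 sample, while Cxcr3 and S1pr1 were lost without any 1 WT sample or without ACKR2-/- replicate 4 (highest adjusted p = 0.13 and 0.0848). The receptors lower in every ACKR2-/- sample were not called. Cxcr4, which holds cells in the marrow, had a mean of 23.1 CPM in WT and 16.9 CPM in ACKR2-/- monocytes (adjusted p = 0.127), Cxcr2, of neutrophils, 14.1 and 6.32 CPM (adjusted p = 0.108), and the atypical receptor Ccrl2 10.9 and 6.46 CPM (adjusted p = 0.102).

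Ccr1 and Cxcr6 lie 2.06 and 1.9 Mb from Ackr2 on chromosome 9. Within 10 Mb of Ackr2, 85 genes were tested and 4 were called (4.71%), against 1.27% of all genes. The other 2 were lower. They are Vill, a villin-like actin-binding protein, with 113, 129, 132 and 106 CPM in WT and 70.2, 72.9, 91.2 and 70.8 CPM in ACKR2-/- monocytes, and Sacm1l, a phosphoinositide phosphatase, with 10.8 to 15.8 CPM and 3.98 to 7.26 CPM. Both were lost without any 1 WT sample or without ACKR2-/- replicate 1 or 4, and Vill without ACKR2-/- replicate 2 (highest adjusted p = 0.128 and 0.124 from edgeR). In the deposited table (build mm10) Ccr1 spans chromosome 9 from 123962124 to 123968692, Cxcr6 from 123806475 to 123811760, Vill from 119052778 to 119071525 and Sacm1l from 123529759 to 123592600. Ackr2 itself had 2 reads over the WT and 0 over the ACKR2-/- samples, too few to check the genotype labels, so the direction of every difference given here rests on the labels.

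Several genes that monocytes express at moderate levels rose. Serpinf1, a secreted serpin that inhibits new vessels, was 8.14, 12.996, 9.68 and 14.5 CPM in WT and 26.7, 29.6, 27.1 and 35.4 CPM in ACKR2-/- monocytes (log2 fold change 1.39, standard error 0.18, adjusted p = 0.00253 from edgeR). Hmgn1, a protein that binds nucleosomes, was 33.02, 37.6, 34.6 and 41.3 CPM in WT and 63.1, 62.7, 57.1 and 73.2 CPM in ACKR2-/- monocytes (log2 fold change 0.81, standard error 0.12, adjusted p = 0.00619). Kctd14 was 11.8, 12.996, 14.4 and 16.2 CPM in WT and 27.2, 23.6, 26.8 and 27.7 CPM in ACKR2-/- monocytes (log2 fold change 0.92, standard error 0.13, adjusted p = 0.0046). The genotypes did not overlap for any of the 3 genes, and all 3 stayed called in every fit that left out 1 sample. Smaller rises were seen for Clec16a, a regulator of mitophagy, Jmjd1c, of the lysine demethylase family, Bloc1s2, a subunit of a complex for lysosome positioning, and Kpnb1, an importin. Their means went from 20.2 to 35.2 CPM, from 17.3 to 31.97 CPM, from 95.6 to 142 CPM and from 46.8 to 67.1 CPM, and their log2 fold changes were 0.80, 0.89, 0.57 and 0.52. Bloc1s2 and Kpnb1 were lost without any 1 sample but ACKR2-/- replicate 3, Jmjd1c without WT replicate 1, 2 or 4 or ACKR2-/- replicate 1 or 4, and Clec16a without WT replicate 1, 3 or 4 or ACKR2-/- replicate 4 (highest adjusted p = 0.172, for Kpnb1).

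Other genes with the smallest p were nearly silent in WT monocytes. Ppp3cc, a catalytic subunit of the phosphatase calcineurin, was 0.326, 0.311, 0.389 and 0.503 CPM in WT and 3.17, 2.33, 2.42 and 3.08 CPM in ACKR2-/- monocytes (log2 fold change 2.82, standard error 0.32, adjusted p = 0.00089 from edgeR). Cd96, a receptor of T and NK cells, went from 0.187 to 0.280 CPM in WT to 1.59 to 2.42 CPM, and Ablim1, an actin-binding protein, from 0.249 to 0.615 CPM to 2.05 to 3.71 CPM. Itm2a, a membrane protein found in activated T cells, was 1.18 to 1.51 CPM in WT and 3.87 to 9.19 CPM in ACKR2-/- monocytes. Samd3, Ppm1j and Sidt1 had 0 reads in at least 2 WT samples and at most 0.0622 CPM in the others, and lay between 0.569 and 3.35 CPM in ACKR2-/- monocytes (adjusted p = 0.00118, 0.0046 and 0.0046), and the noncoding gene Gm19585 went from a mean of 0.149 to 1.55 CPM. A count of 0 allows up to 3 reads, or 0.158 to 0.195 CPM in these samples, counting error only. Of these genes at least Cd96 and Itm2a are ones that lymphocytes express, and others may be too. None is in the lists of lymphoid genes because the rule for naming left out members of those lists. The part of lymphocyte RNA in the values of all these genes was not tested.

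Most of the lymphoid genes called higher had a WT mean under 1 CPM, but WT samples held lymphoid RNA. All 697 antigen receptor segments listed summed to 699 to 936 CPM in WT and 1371 to 1791 CPM in ACKR2-/- monocytes. Of 34 tested T cell genes 28 were called higher, of 17 NK and cytotoxic genes 11, of 7 GIMAP genes 6, and of 31 antigen receptor segments 15, with median log2 fold changes of 3.55, 3.11, 3.94 and 3.03. None was called lower, and over all tested genes 0.913% were called higher and 0.355% lower. Nkg7, a granule protein of cytotoxic cells and the most abundant member, had means of 857 and 787 CPM (adjusted p = 0.905). It was above the WT range in ACKR2-/- replicate 2, within it in replicate 1 and below it in replicates 3 and 4. Within each genotype Nkg7 ranked the samples in the same order as Elane, a granule enzyme of granulocyte-monocyte progenitors. The cells that the Nkg7 RNA came from were not tested. Cytokine receptors of lymphocytes were among the genes called, with Il2rb, a chain of the IL-2 and IL-15 receptors, at 0.168 to 0.684 CPM in WT and 5.35 to 11.7 CPM in ACKR2-/- monocytes and Il7r, of the IL-7 receptor, at 0.0559 to 0.261 CPM and 1.54 to 3.82 CPM. Of the 33 interleukin and interleukin receptor genes tested these 2 were higher and 1, Il1f9, was lower, with a median of -0.19 that was -0.10 without WT replicate 1. Of 24 genes of the tumour necrosis factor ligands and receptors 2 were higher, Cd27, with means of 1.29 and 8.08 CPM, and Ltb, which encodes lymphotoxin beta, with means of 4.05 and 11.3 CPM, and 19 were negative. Of 11 tested B cell genes 0 were called by edgeR and 10 were positive, 4 of them at an unadjusted p under 0.05. Of all 13246 tested genes 1169 were higher at that p. DESeq2 called 2 B cell genes higher, and 312 of all genes.

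Some genes of antibody-secreting cells and of plasmacytoid dendritic cells rose as well. Jchain, which joins IgA and IgM chains, was 25.7, 13.7, 12.2 and 18.9 CPM in WT and 94.1, 101, 69.5 and 121 CPM in ACKR2-/- monocytes (log2 fold change 2.45, standard error 0.24, adjusted p = 0.000276 from edgeR). Igha, the constant region of IgA, was 12.6, 23.2, 12.6 and 18.96 CPM in WT and 148, 50.4, 142 and 211 CPM in ACKR2-/- monocytes. The genotypes did not overlap for either. Of the 5 tested plasma cell genes Jchain and Mzb1, a chaperone of antibody assembly, were called (40%, against 0.913% of all genes called higher). The other 3 were negative, and the sum of that list overlapped (460.4 to 543 CPM in WT and 509 to 609.9 CPM in ACKR2-/- monocytes). Without any 1 sample but ACKR2-/- replicate 3, Mzb1 was no longer called (highest adjusted p = 0.157).

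Siglech, a sialic acid receptor of plasmacytoid dendritic cells, was 4.88, 4.54, 3.56 and 5.26 CPM in WT and 78.6, 18.6, 17.2 and 26.3 CPM in ACKR2-/- monocytes, with ACKR2-/- replicate 1 far above the others (log2 fold change 2.95, standard error 0.46, adjusted p = 0.00795 from edgeR). Klk1 and Cox6a2, which these cells also express, went from 0.556 to 1.87 CPM to 6.26 to 25.8 CPM and from 0.782 to 1.34 CPM to 4.10 to 13.7 CPM, and both were also highest in ACKR2-/- replicate 1. All 3 stayed called without that sample. These were the only 3 of 14 tested dendritic cell genes called (21.4%, against 0.913% of all genes called higher). Of the 14, 12 were positive, with a median of 0.39 that lay between 0.22 without ACKR2-/- replicate 4 and 0.64 without ACKR2-/- replicate 2.

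Cd34, Ly6a and Cd93, surface antigens of stem and early progenitor cells, rose together in ACKR2-/- monocytes, while the progenitor list did not. Cd34 was 7.099, 11.4, 7.62 and 9.84 CPM in WT and 32.8, 15.4, 13.9 and 24.1 CPM in ACKR2-/- monocytes (log2 fold change 1.26, standard error 0.27, adjusted p = 0.0466 from edgeR). Ly6a, which encodes Sca-1 and is also induced by interferon, was 8.66, 10.8, 9.403 and 10.01 CPM in WT and 31.1, 15.8, 17.8 and 19.1 CPM in ACKR2-/- monocytes (log2 fold change 1.11, standard error 0.21, adjusted p = 0.0259). Cd93, a lectin-like receptor also found on monocytes, was 29.6, 24.8, 29.1 and 26.6 CPM in WT and 46.6, 41.95, 36.04 and 39.8 CPM in ACKR2-/- monocytes (log2 fold change 0.58, standard error 0.12, adjusted p = 0.0405). Only Cd34 is in the progenitor list, and Ly6a and Cd93 are in that of classical monocytes. All 3 were highest in ACKR2-/- replicate 1, as were Siglech, Klk1 and Cox6a2, and were higher in every ACKR2-/- sample. The part of RNA of other cells in these values was not tested. Without ACKR2-/- replicate 1, Cd34 and Cd93 were no longer called while Ly6a was. Each of the 3 was also lost without any 1 WT sample or without ACKR2-/- replicate 4, and Cd93 without ACKR2-/- replicate 2 (highest adjusted p = 0.164, 0.107 and 0.14). Of 31 tested progenitor genes Cd34 was the 1 called (3.23%, against 0.913% of all genes called higher). In this list 22 were negative, with a median log2 fold change of -0.22, which was -0.06 without ACKR2-/- replicate 4. The granule enzymes Mpo and Elane, of granulocyte-monocyte progenitors, overlapped, with means of 7295 and 5276 CPM and of 9995 and 8399 CPM, and Irf8, the transcription factor that directs progenitors to the monocyte lineage, had means of 407 and 497 CPM (adjusted p = 0.302).

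Lower genes included the adaptor Crkl, the kinase Ptk2b and the scaffold Pxn. Crkl, an adaptor with SH2 and SH3 domains, was 25.2, 29.97, 27.8 and 23.4 CPM in WT and 12.9, 12.9, 14.8 and 10.6 CPM in ACKR2-/- monocytes (log2 fold change -1.05, standard error 0.14, adjusted p = 0.0025 from edgeR). Ptk2b, the focal adhesion kinase family member PYK2, was 80.7, 76.8, 81.6 and 57.95 CPM in WT and 35.98, 41.3, 47.8 and 40.4 CPM in ACKR2-/- monocytes (log2 fold change -0.84, standard error 0.14, adjusted p = 0.011). Pxn, the focal adhesion scaffold paxillin that both bind, was 68.1, 72.6, 64.9 and 54.6 CPM in WT and 28.3, 41.6, 46.5 and 33.99 CPM in ACKR2-/- monocytes (log2 fold change -0.79, standard error 0.16, adjusted p = 0.0376). The genotypes did not overlap for any of the 3, and the spread was wider for Pxn than for Crkl. Shc1, an adaptor of growth factor receptors, had means of 95.2 and 63.7 CPM, Hcls1, a cortactin-like protein of blood cells, 66.8 and 43.7 CPM, and the protease Capn1, calpain 1, which cuts adhesion proteins, 11.4 and 5.77 CPM. Crkl stayed called in all 8 fits that left out 1 sample. Ptk2b was lost without WT replicate 1 or 2 (highest adjusted p = 0.0591), and Pxn, Shc1, Hcls1 and Capn1 were lost without WT replicate 1, 2 or 4 or ACKR2-/- replicate 4. WT replicate 3 and ACKR2-/- replicate 1 ended the calls of Pxn, Shc1 and Hcls1 as well, and ACKR2-/- replicate 2 those of Shc1, Hcls1 and Capn1 (highest adjusted p = 0.137, 0.142, 0.157 and 0.114).

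The integrins themselves were not called. Of 30 tested integrin and adhesion genes 0 were called, 20 were negative, and the median log2 fold change was -0.16 (-0.08 without ACKR2-/- replicate 2). At an unadjusted p under 0.05 edgeR gave 1 higher and 4 lower, against 1169 and 1082 of all 13246 tested genes. DESeq2 called 1 lower, against 182 of all genes. Of 40 tested genes of Fc receptors and immunoreceptor signalling Crkl and Fcgr4 were called lower (5%, against 0.355% of all genes). In that list 32 were negative, and the median was -0.21, or -0.12 without ACKR2-/- replicate 1.

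The receptors Fcgr4 and C5ar1 were also lower. Fcgr4, an activating receptor for IgG that increases as monocytes mature, was 27.1, 22.6, 18.1 and 17.1 CPM in WT and 6.02, 10.9, 10.5 and 11.2 CPM in ACKR2-/- monocytes (log2 fold change -1.14, standard error 0.22, adjusted p = 0.0283 from edgeR). Other IgG receptors overlapped between the genotypes, with Fcgr1 at means of 76.7 and 59.7 CPM and Fcgr3 at means of 680 and 651 CPM. C5ar1, the receptor for complement C5a, was 41.3, 55.6, 34.3 and 43.02 CPM in WT and 29.5, 23.9, 16.996 and 18.96 CPM in ACKR2-/- monocytes (log2 fold change -0.96, standard error 0.19, adjusted p = 0.0352). Its highest and lowest samples, WT replicate 2 and ACKR2-/- replicate 3, were those of the neutrophil list.

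Siglece and Cd33, sialic acid-binding receptors of myeloid cells, fell by similar amounts. Siglece, which inhibits activation, was 48.8, 60.3, 43.3 and 47.4 CPM in WT and 32.5, 35.7, 31.3 and 27.5 CPM in ACKR2-/- monocytes, and Cd33 was 29.2, 31.3, 28.3 and 26.5 CPM in WT and 21.4, 18.4, 20.3 and 18.3 CPM in ACKR2-/- monocytes. The log2 fold changes were -0.65 and -0.56 (standard errors 0.13 and 0.11, adjusted p = 0.0387 for both). Il1f9, the cytokine IL-36 gamma, was 11.9, 18.6, 11.4 and 13.6 CPM in WT and 7.58, 8.65, 5.89 and 5.099 CPM in ACKR2-/- monocytes (log2 fold change -1.03, standard error 0.22, adjusted p = 0.0446). It was again highest in WT replicate 2. Leaving out WT replicate 1 or 2 or ACKR2-/- replicate 4 ended the call of each of these 5 genes. For C5ar1, Siglece, Cd33 and Il1f9 so did WT replicate 4, and for Siglece, Cd33 and Il1f9 WT replicate 3. ACKR2-/- replicate 1 also ended those of Siglece and Il1f9, ACKR2-/- replicate 2 those of C5ar1 and Cd33, and ACKR2-/- replicate 3 that of Il1f9 (highest adjusted p = 0.108 for Fcgr4, 0.119 for C5ar1, 0.133 for Siglece, 0.145 for Cd33 and 0.152 for Il1f9). C5ar1 was the 1 gene called lower and Cd93 the 1 called higher of 17 tested complement genes (5.88% each, against 0.355% and 0.913% of all genes). Of the 17, 11 were negative.

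Transcription factors moved in both directions. Fli1, an ETS family factor of blood cells, was 75.9, 77.4, 62.6 and 63.04 CPM in WT and 45.3, 46.6, 41.5 and 43.1 CPM in ACKR2-/- monocytes (log2 fold change -0.66, standard error 0.11, adjusted p = 0.0155 from edgeR). Arid3a, a DNA-binding protein of haematopoietic cells, was 36.4, 35.4, 36.6 and 33.8 CPM in WT and 15.01, 24.2, 18.9 and 21.3 CPM in ACKR2-/- monocytes (log2 fold change -0.84, standard error 0.14, adjusted p = 0.0146). Jdp2, a repressor of the AP-1 family, was 38.5, 51.9, 30.5 and 36.5 CPM in WT and 21.1, 27.8, 15.7 and 17.4 CPM in ACKR2-/- monocytes (log2 fold change -0.94, standard error 0.20, adjusted p = 0.0481). Fli1 had a narrow spread in both genotypes and Arid3a in WT only, while Jdp2 had its highest and lowest samples in common with the neutrophil list. Id3, an inhibitor of E proteins, rose from 1.37, 0.808, 2.003 and 0.839 CPM to 4.46, 3.59, 3.89 and 3.93 CPM (log2 fold change 1.65, standard error 0.31, adjusted p = 0.0283). The part of lymphocyte RNA in these low values was not tested. Tsc22d1, a leucine zipper protein induced by TGF-beta, rose from 9.18, 11.3, 10.2 and 10.1 CPM to 30.2, 16.6, 17.7 and 22.998 CPM (log2 fold change 1.10, standard error 0.19, adjusted p = 0.0155). Of 66 tested myeloid transcription factors Id3 was called higher and Fli1 lower (1.52% each, against 0.913% and 0.355% of all genes). In that list, which does not hold Arid3a, Jdp2 and Tsc22d1, 42 were negative. The median was -0.16, or -0.09 without ACKR2-/- replicate 2. Without WT replicate 1 all 5 were lost, and without WT replicate 2 all but Tsc22d1 (highest adjusted p = 0.0819 for Fli1, 0.0665 for Arid3a, 0.152 for Jdp2, 0.0965 for Id3 and 0.0797 for Tsc22d1). WT replicate 4 ended the call of all but Fli1, WT replicate 3 those of Arid3a, Jdp2 and Tsc22d1, and ACKR2-/- replicate 4 those of all but Arid3a. Jdp2 was also lost without ACKR2-/- replicate 1 or 3.

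Since an ETS factor was among the genes called lower, promoters were searched for GGAAGT, letters that lie at the core of many ETS binding sites, on both strands (ACTTCC on the other). The 250 bases before the RefSeq start (build GRCm38.p6) were used. They held the letters for 12 of 33 genes called lower that had a promoter in the table (36.4%), 21 of 71 called higher (29.6%), 25.4% of 9089 tested genes and 5401 of all 27025 promoters. These are counts of letters and not of bound sites. Shown are Hcls1 and Il1f9, each with 1 match, in capitals, whose first base lies 58 and 130 bases before the start, and Ncf1, which had none and is described after them. Hcls1 is on the plus strand (chr16:36934733-36934982), Il1f9 on the plus strand (chr2:24186226-24186475) and Ncf1 on the minus strand (chr5:134229626-134229875).
Hcls1: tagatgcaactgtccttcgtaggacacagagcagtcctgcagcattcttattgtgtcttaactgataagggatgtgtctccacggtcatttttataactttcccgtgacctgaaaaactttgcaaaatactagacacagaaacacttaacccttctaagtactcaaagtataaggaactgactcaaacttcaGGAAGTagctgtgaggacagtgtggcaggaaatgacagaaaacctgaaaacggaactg
Il1f9: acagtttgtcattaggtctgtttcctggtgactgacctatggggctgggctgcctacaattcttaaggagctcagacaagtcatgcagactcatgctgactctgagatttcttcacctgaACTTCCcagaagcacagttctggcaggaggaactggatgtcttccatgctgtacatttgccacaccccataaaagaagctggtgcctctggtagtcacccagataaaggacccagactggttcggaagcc
Ncf1: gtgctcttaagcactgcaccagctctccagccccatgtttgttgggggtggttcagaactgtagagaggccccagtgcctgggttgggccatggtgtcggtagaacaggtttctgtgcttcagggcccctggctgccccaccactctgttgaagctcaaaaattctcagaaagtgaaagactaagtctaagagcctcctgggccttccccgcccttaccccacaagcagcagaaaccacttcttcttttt

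Lower genes also included Ncf1, Pgd and Txnrd1. Ncf1, the p47phox subunit of the NADPH oxidase that produces superoxide, was 473, 546, 369.8 and 399 CPM in WT and 283, 308, 256 and 257 CPM in ACKR2-/- monocytes (log2 fold change -0.70, standard error 0.15, adjusted p = 0.0458 from edgeR). Pgd, the enzyme of the pentose phosphate pathway that yields NADPH from 6-phosphogluconate, was 429.9, 494, 394 and 387 CPM in WT and 195, 321, 248 and 208 CPM in ACKR2-/- monocytes (log2 fold change -0.81, standard error 0.17, adjusted p = 0.0419). Txnrd1, a thioredoxin reductase that consumes NADPH, was 60.8, 65.4, 48.96 and 52.1 CPM in WT and 38.2, 40.6, 35.5 and 38.2 CPM in ACKR2-/- monocytes (log2 fold change -0.57, standard error 0.12, adjusted p = 0.0443). For all 3 the lowest WT sample was above the highest ACKR2-/- sample and WT replicate 2 was the highest sample of all. Leaving out any 1 WT sample or ACKR2-/- replicate 1 or 4 ended the call of all 3, and for Ncf1 and Txnrd1 so did ACKR2-/- replicate 3 (highest adjusted p = 0.155, 0.152 and 0.159).

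Pgd was the 1 called gene of 31 tested genes of glycolysis and the pentose phosphate pathway (3.23%, against 0.355% of all genes called lower). Of the list 25 were negative. The median log2 fold change was -0.28, and it lay between -0.37 without ACKR2-/- replicate 2 and -0.19 without WT replicate 2. Every ACKR2-/- sample lay below every WT sample for 8 of the 31 (25.8%, against 5.25% of all genes). Among them G6pdx, the first enzyme of the pentose phosphate pathway, was 546, 635, 520.0 and 491 CPM in WT and 348, 264, 471 and 392 CPM in ACKR2-/- monocytes (adjusted p = 0.139), and the lactate exporter Slc16a3 was 39.04 to 55.96 CPM and 26.01 to 37.04 CPM (adjusted p = 0.0767). The sum of the list was 11677, 13751, 10795 and 11765 CPM in WT and 8781, 10519, 10252 and 8942 CPM in ACKR2-/- monocytes. The 2 genotypes did not overlap, although WT replicate 3 and ACKR2-/- replicate 2 were close.

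Other genes called lower have varied roles in ion transport, iron, lysosomes and splicing. Mcu, the pore of the mitochondrial calcium uniporter, was 35.9, 53.4, 29.3 and 32.2 CPM in WT and 21.1, 21.9, 13.4 and 16.04 CPM in ACKR2-/- monocytes. Ncoa4, which delivers ferritin to lysosomes, was 105, 129.6, 82.6 and 96.9 CPM in WT and 72.7, 67.9, 51.8 and 56.04 CPM in ACKR2-/- monocytes. It was the 1 called gene of 25 tested for heme and iron (4%, against 0.355% of all genes called lower). Mcu and Ncoa4 had their highest and lowest samples in common with the neutrophil list. Mreg, melanoregulin, a protein of lysosome-related organelles, fell from 8.14, 13.3, 6.899 and 8.502 CPM to 0.538, 3.24, 0.789 and 0.903 CPM (log2 fold change -2.76, standard error 0.47, adjusted p = 0.0149 from edgeR). Prpf19, a core splicing factor, was 29.2, 33.2, 27.7 and 32.6 CPM in WT and 9.68, 19.8, 16.6 and 12.5 CPM in ACKR2-/- monocytes (log2 fold change -1.07). The kinase Gsk3a had means of 21.2 and 11.9 CPM, the monooxygenase Fmo5 36.7 and 17.4 CPM, the ubiquitin ligase Rnf19a 19.001 and 12.2 CPM, the lysosomal sulfatase Arsb 32.1 and 18.6 CPM and Narf 34.6 and 23.3 CPM. Each of these genes was lost when WT replicate 2 was left out and all but Mreg without WT replicate 1, with an adjusted p of at most 0.152. ACKR2-/- replicate 4 ended all these calls, WT replicate 4 those of Mcu, Ncoa4, Mreg, Prpf19, Fmo5 and Rnf19a, and WT replicate 3 those of Gsk3a, Rnf19a and Narf. ACKR2-/- replicate 2 ended those of Arsb and Ncoa4 and ACKR2-/- replicate 3 that of Ncoa4.

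**Figure D3:**
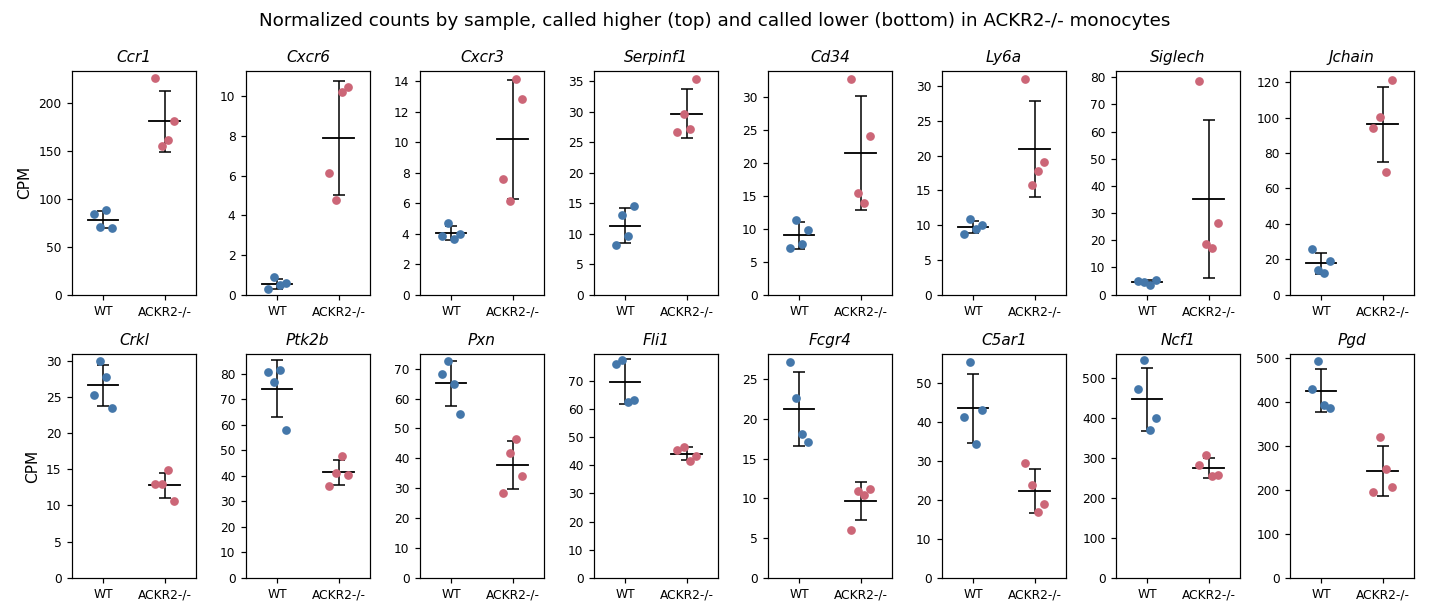
CPM in each sample (y axes, linear from 0, 1 point per sample) of 8 genes called higher (top) and 8 called lower (bottom) in ACKR2-/- monocytes, with the mean (line) and SD (bars) of each genotype (n = 4). No WT point overlaps the ACKR2-/- points in any panel, and ACKR2-/- replicate 1 is far above the others for Siglech (78.6 CPM, against 17.2 to 26.3).

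None of the neutrophil genes was called. All 19 tested had negative log2 fold changes, with a median of -0.90, and 6 of them (31.6%, against 5.25% of all genes) did not overlap. At an unadjusted p under 0.05 edgeR gave 10 of them (and 1082 lower genes of all 13246 tested), and DESeq2 called 5 (and 182 lower genes of all tested). Lcn2, the iron-binding granule protein lipocalin 2, was 1048, 2295, 837 and 1502 CPM in WT and 546, 699.9, 260.2 and 317 CPM in ACKR2-/- monocytes (log2 fold change -1.64, standard error 0.36, adjusted p = 0.0527 from edgeR). The most abundant members overlapped, with Ngp at means of 14678 and 7522 CPM and S100a9 at 18647 and 10400 CPM. Ly6g, the antigen used to remove neutrophils in the sort, was 7.46 to 18.2 CPM in WT and 2.68 to 6.94 CPM in ACKR2-/- monocytes (adjusted p = 0.072), and Cd177 had means of 422 and 255 CPM (adjusted p = 0.0717). With 1 sample left out in turn, the median of the list lay between -1.09 without ACKR2-/- replicate 1 and -0.59 without WT replicate 2. All 7 basophil and mast cell genes were negative too, with a median of -0.82 (-0.52 without ACKR2-/- replicate 3), 3 at an unadjusted p under 0.05 and 1 called by DESeq2. Cpa3, a mast cell protease, was 0.912, 2.55, 1.78 and 2.24 CPM in WT and 0.0538, 0.797, 0.105 and 0.372 CPM in ACKR2-/- monocytes (adjusted p = 0.0797).

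Lists of mature monocytes and macrophages had few called genes. Of 40 tested classical monocyte genes Ly6a and Cd93 were higher (5%, against 0.913% of all genes), and 31 were negative. The median log2 fold change was -0.16, and it lay between -0.36 without ACKR2-/- replicate 3 and -0.02 without ACKR2-/- replicate 1. Chil3, a chitinase-like protein and one of the most abundant of these genes, was 7552 to 9209.9 CPM in WT and 4959.6 to 6640.1 CPM in ACKR2-/- monocytes (adjusted p = 0.149). Of 29 nonclassical monocyte genes 0 were called, 24 were negative, and the median was -0.30. Its member with the smallest p, Stap1, an adaptor of the CSF1 receptor, had means of 55.2 and 37.5 CPM (adjusted p = 0.0605). Of 28 macrophage genes 0 were called and 22 were negative, with a median of -0.39, and the complement subunit C1qb had means of 3.54 and 1.63 CPM (adjusted p = 0.0785). At an unadjusted p under 0.05 edgeR gave 1 higher and 3 lower nonclassical genes and 8 lower macrophage genes, and DESeq2 called 1 lower in each list. Over all 13246 tested genes edgeR gave 1169 higher and 1082 lower at that p, and DESeq2 called 312 and 182.

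Lists of growth and energy metabolism held 2 called genes, Hist1h4d and Pgd, and some medians were shifted. Of 70 cell cycle and replication genes 0 were called, 44 were negative, and 9 (12.9%, against 5.25%) were lower without overlap. Plk1, a kinase of mitosis, was 199.9, 247, 187 and 189 CPM in WT and 126, 129.7, 169.6 and 137 CPM in ACKR2-/- monocytes (adjusted p = 0.0854). Replication histones pointed the other way, with 45 of 54 positive and a median of 0.39. Yet 0 were called higher and only Hist1h4d was called lower (1.85%, against 0.355% of all genes), with means of 57.1 and 33.2 CPM. The histone median was 0.15 without ACKR2-/- replicate 1. Of 81 cytosolic ribosomal protein genes 69 were positive with a median of 0.15, and of 78 nuclear genes of oxidative phosphorylation 63 with a median of 0.15, and 0 of either were called. Without ACKR2-/- replicate 2 these medians were 0.04 and 0.07. Ndufb4, a subunit of complex I, had the smallest p of these, with 97.5 to 133 CPM in WT and 141 to 172 CPM in ACKR2-/- monocytes (adjusted p = 0.0809). The 12 tested mitochondrially encoded genes had a median of 0.63, and 0.26 without ACKR2-/- replicate 1. The apocytochrome mt-Cytb was 783, 927, 1020.1 and 942 CPM in WT and 2425, 702, 975 and 1775 CPM in ACKR2-/- monocytes, highest in ACKR2-/- replicates 1 and 4. Over all 13246 tested genes edgeR gave 1169 higher and 1082 lower at an unadjusted p under 0.05. Among them were 3 higher and 11 lower cell cycle genes and 9 higher ribosomal protein genes. There were also 8 higher and 2 lower nuclear genes of oxidative phosphorylation, and 3 higher and 1 lower mitochondrially encoded genes. DESeq2 called 2 cell cycle genes lower, 1 ribosomal protein gene and 2 nuclear genes of oxidative phosphorylation higher, and 0 of the last list. Its calls over all genes were 312 higher and 182 lower.

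Sensing and signalling lists held few called genes. Of 76 interferon stimulated genes 0 were called and 58 were negative, with a median of -0.20, which lay between -0.36 without ACKR2-/- replicate 3 and -0.04 without ACKR2-/- replicate 2. Cxcl9, an interferon-induced chemokine, had the smallest p, with means of 4.12 and 1.08 CPM (adjusted p = 0.11). Of 51 genes of Toll-like receptors, C-type lectins and inflammasomes 0 were called and 42 were negative, and Irak3, which restrains Toll-like receptor signalling, had means of 68.4 and 47.99 CPM (adjusted p = 0.111). Of 43 lysosome and autophagy genes 0 were called and 38 were negative, with a median of -0.17 (-0.26 without ACKR2-/- replicate 3 and -0.10 without ACKR2-/- replicate 1), and Wipi1, an autophagy protein, was 17.4 to 26.9 CPM in WT and 8.77 to 15.7 CPM in ACKR2-/- monocytes (adjusted p = 0.0512). Of 34 stress chaperone and unfolded protein response genes 0 were called, with calreticulin, Calr, at means of 515 and 349.7 CPM (adjusted p = 0.0814). Of all 13246 tested genes edgeR gave 1169 higher and 1082 lower at an unadjusted p under 0.05. Among them were 3 higher and 8 lower interferon stimulated genes, 2 and 7 sensor genes, 2 and 5 lysosome genes, and 1 and 3 chaperone genes. DESeq2 called 1 gene lower in each of these lists and 1 chaperone gene higher, against 182 lower and 312 higher over all genes.

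Of 37 NF-kB pathway genes 2 were higher, Traf1 among them, and 1, Gsk3a, was lower (5.41% and 2.7%, against 0.913% and 0.355% of all genes). The median was -0.04, and -0.0004 without ACKR2-/- replicate 2. Traf1, an adaptor of tumour necrosis factor receptors, had means of 1.07 and 3.10 CPM, and the part of lymphocyte RNA in them was not tested. Traf1 was lost without any 1 WT sample and without ACKR2-/- replicate 1, 2 or 4 (highest adjusted p = 0.135 from edgeR). Gsk3a was lost without WT replicate 1, 2 or 3 or ACKR2-/- replicate 4. Of 28 growth factor receptor and JAK-STAT genes 0 were called, with Stat3 at means of 127 and 94.00 CPM (adjusted p = 0.102). Of 33 BCL2 family and apoptosis genes 0 were called, and Bcl2, which protects cells from apoptosis, was 4.43 to 7.68 CPM in WT and 8.71 to 23.1 CPM in ACKR2-/- monocytes (adjusted p = 0.0606). Here too the part of lymphocyte RNA was not tested. Of 20 MHC class I genes H2-Q6 was higher (5%, against 0.913% of all genes), with means of 16.2 and 27.1 CPM. It was called without 1 sample only where that was ACKR2-/- replicate 3 (highest adjusted p = 0.168), and reads may be shared with its close copies. Of 17 MHC class II genes 0 were called (median -0.07, and 0.06 without ACKR2-/- replicate 2), and H2-Oa, which moderates peptide loading, had means of 1.501 and 3.46 CPM (adjusted p = 0.066). Of 27 TGF-beta pathway genes 0 were called with a median of -0.05 that was -0.01 without ACKR2-/- replicate 1. At an unadjusted p under 0.05 edgeR gave 1 higher and 5 lower growth factor receptor and JAK-STAT genes, 4 and 5 BCL2 family genes, 2 and 1 MHC class II genes, and 0 and 1 TGF-beta pathway genes. DESeq2 called 0, 2 (higher), 1 (higher) and 1 (lower). At the same unadjusted p edgeR gave 1169 higher and 1082 lower genes of all 13246 tested, and DESeq2 called 312 and 182. The STAT6 and alternative activation list summed to 11126, 10856, 11077 and 10180.3 CPM in WT and 7155, 7789, 7705 and 6936 CPM in ACKR2-/- monocytes, without overlap. Chil3, at means of 8359 and 5609.9 CPM, makes up most of that sum, and of the 25 tested members Alox15 was the 1 called.

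Other lists had few or no calls, where over all genes 0.913% were called higher and 0.355% lower. Of 34 S100 and granule protein genes Ncf1 was called lower and 28 were negative, with a median of -0.42, and of 20 eicosanoid and leukotriene genes Alox15 was lower and 16 were negative, with a median of -0.36. Of 25 heme and iron genes 19 were negative, with a median of -0.19 that was -0.09 without ACKR2-/- replicate 1. Of 16 chemokine genes Ccl5 and Xcl1 were higher and 12 were negative. The chemokine median of -0.26 turned to 0.01 without WT replicate 3, as did that of 28 immediate early genes, from -0.16 to 0.06, where 0 were called. Of 32 genes of cholesterol and fatty acid synthesis 0 were called, and their median of 0.04 turned to -0.03 without ACKR2-/- replicate 3. The 14 erythroid genes were 7 positive and 7 negative, with 0 called and a median of -0.27, which was 0.06 without ACKR2-/- replicate 3. At an unadjusted p under 0.05 edgeR gave 2 higher and 1 lower immediate early genes, 2 and 1 genes of cholesterol and fatty acid synthesis, and 0 and 1 erythroid genes, and DESeq2 called 0 in all 3 lists. Of all 13246 tested genes edgeR gave 1169 higher and 1082 lower at that p, and DESeq2 called 312 and 182.

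**Figure D4:**
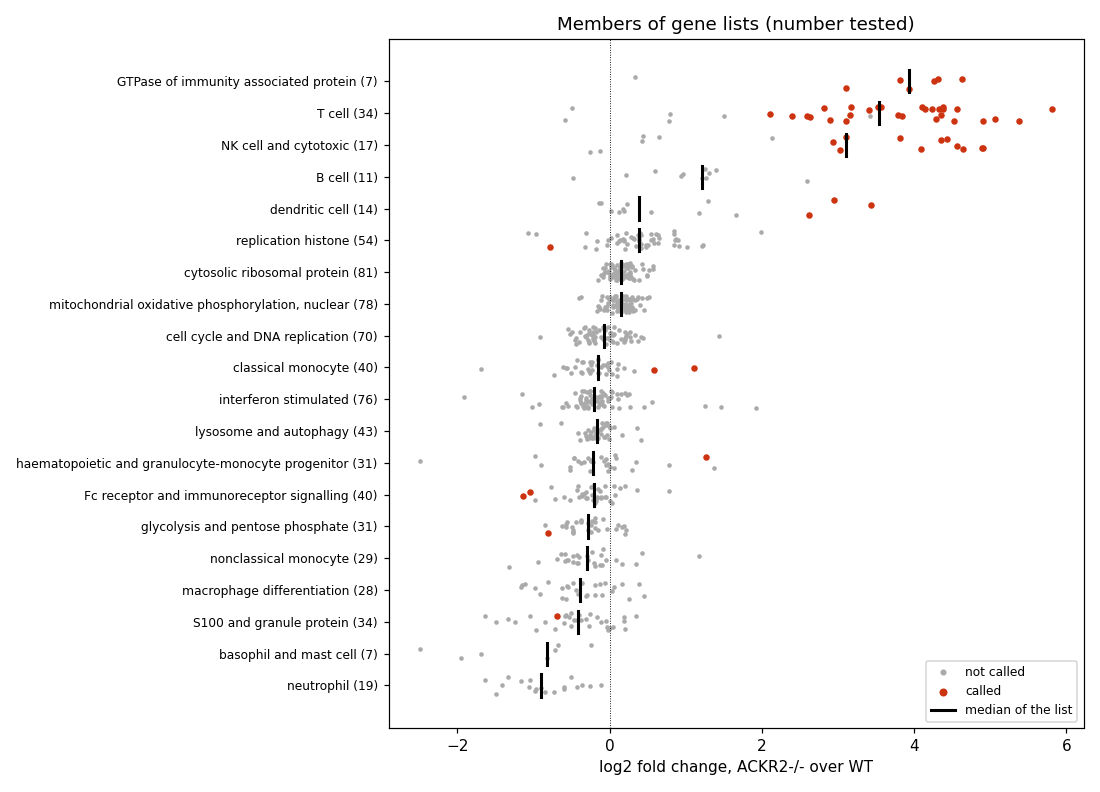
Log2 fold change of ACKR2-/- over WT (x axis) for each tested member of 20 gene lists (y axis, number tested in brackets), with called members in red, other members in grey and the median of each list as a black line. The GIMAP, T cell and NK cell medians are 3.94, 3.55 and 3.11, the neutrophil and basophil medians are -0.90 and -0.82, and all other lists but that of B cells (1.21) lie between -0.42 and 0.39.

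The thresholds left some genes of nearly the same size on either side. Both called genes here were lost without any 1 sample but ACKR2-/- replicate 3. Tspan5, a tetraspanin, had the largest p among the called genes, with means of 37.4 and 24.9 CPM (adjusted p = 0.0495), and Inf2, an actin-nucleating formin, the smallest p among those that missed it, with means of 13.3 and 21.6 CPM (adjusted p = 0.05). Opa3, a mitochondrial protein, had the smallest called fold change with -0.51, and Dram1, a lysosomal membrane protein induced by p53, was left out at -0.47 (adjusted p = 0.0489), although its values of 43.2 to 49.8 CPM in WT and 33.4 to 33.8 CPM in ACKR2-/- monocytes did not overlap.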

How the data were processed

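The file deposited by the authors gives raw, not normalized, read counts per gene for the 8 monocyte samples, and 0 columns were left unmapped. Poly-A RNA of sorted cells had been amplified by the SMARTer method and sequenced as paired-end reads. The submitters' processing notes name HISAT2 2.0.5, featureCounts 1.5.0-p3, DESeq2 and build mm10, without their roles. PCR copies count as reads, so limits given for a count of 0 cover counting error only. Genes with close copies or overlaps may share reads.

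Counts were analysed in R 4.3.3 with edgeR 4.0.16, using filterByExpr (minimum count 10, minimum total 15), TMM factors and the quasi-likelihood test with Benjamini-Hochberg adjustment. Calls needed an adjusted p below 0.05 and a log2 fold change beyond 0.5 in size. CPM were scaled by TMM over the tested genes. Depth was 15450670 to 19218213 reads per sample. Nothing says that samples shared no mice, so p-values measure the spread between these samples. All pairs of replicates differed by more than sampling noise (lowest chi-square 11.57 per degree of freedom). The alternatives tried were DESeq2 1.42.0, RLE factors, a fit to unfiltered genes, a filter at 1 CPM in 4 samples, the adjusted p alone, a robust fit, the replicate number as a block, and each sample left out. The fits were tested on simulated data.

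Genes were named by rule as the monocyte markers, in each direction the 15 called genes with the smallest p outside lymphoid lists and not described earlier, the called members of each list up to 4 (or, with none called, the most abundant and the one with the smallest p), and genes next to the thresholds, and the text gives those among them that it describes. Some items are not reported here. Cxcr3, Cxcr4, Cxcr2, Ccrl2, Cx3cr1, Pxn, Shc1, Hcls1, Cd33, Siglece, Fcgr1, Fcgr3, Jdp2, Tsc22d1, Txnrd1, Mcu, Sacm1l, G6pdx, Slc16a3, Mpo, Elane, Irf8, Chil3, Cd177, Ly6g, Igha, Nkg7, Ncr1, Clec16a, Jmjd1c, Bloc1s2 and Kpnb1 were chosen after their values were seen. The members and lists were chosen with earlier results of these data known. Positions in the table equal those of GENCODE M21 for 93.8% of 12884 tested genes found there. Promoters are from RefSeq.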

Additional observations from a re-analysis of the deposited data

Results flagged for a closer look

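Of 108 groups of 4 samples (values of 40 genes and 14 list sums in each genotype) 3 had a sample far from the others, and chance alone flags about 1 group in 20. Siglech was 78.6 CPM in ACKR2-/- replicate 1, against 17.2 to 26.3 CPM in the other ACKR2-/- samples. Fcgr4 was 6.02 CPM in the same sample, against 10.5 to 11.2 CPM. Mreg was 3.24 CPM in ACKR2-/- replicate 2, against 0.538 to 0.903 CPM. In each case the sample lay on the same side of all WT samples as the other ACKR2-/- samples.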

How the results depend on the processing

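DESeq2 called 312 genes higher and 182 lower, among them all 121 and all 47. Without a filter on low counts 239 and 107 were called, 120 and 46 of them shared. RLE factors, the filter at 1 CPM, the adjusted p alone and the robust fit kept both counts within 1.5 times. With 1 sample left out, 70 to 288 genes were called higher and 5 to 125 lower. Deviations from the genotype means correlated at -0.118, 0.307, 0.0736 and -0.0434 between samples with the same replicate number. These values cannot show whether the numbers pair the samples. With the number as a block 109 genes were called higher and 77 lower, 101 and 37 of them shared. The cause of these shifts was not tested. Of 118 single genes 4 that were not called changed sign. With 1 sample left out, the Ccr2 log2 fold change ranged from -0.3668 to 0.01079, the Fcgr3 log2 fold change from -0.1967 to 0.0559, the Nkg7 log2 fold change from -0.6361 to 0.1261 and the Hba-a1 log2 fold change (a haemoglobin gene) from -0.2523 to 1.19, and the last was -0.0628 with the replicate block. Depth limits genes that are nearly silent in 1 genotype, where 3 reads allow 0.158 to 0.195 CPM.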
